A study of Mus musculus with 3 samples.

Results

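The genes described here are 10 pericentral genes of the mouse liver that depend on Wnt signalling: Glul, Oat, Axin2, Lgr5, Tbx3, Rhbg, Lect2, Cyp2e1, Cyp1a2 and Slc1a2. They were taken by name, as the non-control spots whose gene name on the array equals that of a member. They are 10 of 31870 genes and 14 of 39395 probes. Axin2 and Cyp2e1 have 2 probes each, Slc1a2 has 3, and the other 7 genes have 1 each.

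RNA of hepatocytes was measured on 3 single-colour arrays, 1 per group. In the group called anti-VLA-4, mice ate a high-fat diet and were injected with an antibody blocking VLA-4, an integrin of leukocytes. In the HFD-IgG group, mice ate the same diet and were injected with control IgG. The SD group ate a standard diet, and the labels give no injection for it. All mice were male wild-type C57BL/6, started their diet at 6 weeks of age, kept it for 16 weeks and were 22 weeks old. Injections began after 10 weeks of diet and were given into the abdominal cavity 2 times a week for 6 weeks. The hepatocytes were released from the livers with collagenase after an overnight fast. How many mice contributed to an array is not given in the sources used here, and the only group without the high-fat diet is also the only one without injections.

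Hepatocytes along the blood's path from portal vein to central vein carry out different tasks. Endothelial cells of the central vein secrete Wnt ligands and R-spondin 3, which stabilise beta-catenin in the neighbouring hepatocytes, and beta-catenin with TCF factors then switches on the pericentral genes. Glutamine synthesis from ammonia and much of the metabolism of drugs take place in this zone, whereas the urea cycle and glucose production are stronger near the portal vein.

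Each value below is the processed intensity of a probe divided by the 75th percentile of the non-control spots of its array, so that a level of 1 is the intensity of that percentile. The 75th percentile was 514 in anti-VLA-4, 500.3 in HFD-IgG and 574 in SD. Of 43020 non-control spots, 62.4%, 66.5% and 57.3% were well above background on these arrays, by the scanner software's own flag, and 0 were saturated. With 1 array per group there is no replicate and no test. Differences are described by their fold, with at least 2-fold as the limit, and by the scanner's error within an array, which was 10.0% of the signal for bright probes, or 0.20 on the log2 scale for a difference between arrays. How far mice, cell preparations or hybridisations vary is not known from such a design, and the number of arrays limits the precision. The HFD-IgG and SD arrays lay on 1 slide and the anti-VLA-4 array on another, so the effects of slide and of antibody cannot be told apart. As the 3 comparisons share arrays, their values are set side by side and are not independent. All 17 hepatocyte markers examined, among them Alb and Hnf4a, were well above background on every array. Fewer cells of a type and less RNA per cell cannot be told apart in such samples.

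The DNA just upstream of the genes is shown first, because beta-catenin acts through TCF factors, which bind the core CTTTGAT. The 250 bases before the start site were taken from RefSeq (build GRCm38.p6) for the 7 members matched there, Glul, Oat, Axin2, Lect2, Cyp2e1, Cyp1a2 and Slc1a2. Lgr5, Tbx3 and Rhbg had no entry. The core CTTTGAT was searched on both strands, and so was the shorter CTTTGA, which is contained in it. CTTTGAT lay in 2 of the 7 windows, those of Slc1a2 and Lect2, and in 3.21% of 32851 windows of all genes. CTTTGA lay in 4 of the 7, adding Cyp2e1 and Cyp1a2, and in 13.8% of all windows. Such a match is a description of these letters and not a binding site. Of the windows printed, Oat belongs to the member with the largest difference, Cyp1a2 and Slc1a2 to members that were lower on the HFD-IgG array, and Lect2 to a member that was higher on the anti-VLA-4 array. Each reads 5′ to 3′ on the gene's strand with matches in capitals.
Oat (chr7:132576399-132576648, minus strand): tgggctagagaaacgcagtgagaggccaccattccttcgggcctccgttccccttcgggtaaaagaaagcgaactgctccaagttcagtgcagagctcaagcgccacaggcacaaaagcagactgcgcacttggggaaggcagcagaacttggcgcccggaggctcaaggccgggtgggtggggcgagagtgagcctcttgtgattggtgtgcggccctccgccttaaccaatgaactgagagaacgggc
Cyp1a2 (chr9:57683656-57683905, minus strand): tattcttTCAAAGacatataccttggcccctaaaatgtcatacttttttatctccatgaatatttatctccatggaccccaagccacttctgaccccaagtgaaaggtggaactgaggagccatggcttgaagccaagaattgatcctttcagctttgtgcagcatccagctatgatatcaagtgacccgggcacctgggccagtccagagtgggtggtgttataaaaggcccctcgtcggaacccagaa
Slc1a2 (chr2:102706188-102706437, plus strand): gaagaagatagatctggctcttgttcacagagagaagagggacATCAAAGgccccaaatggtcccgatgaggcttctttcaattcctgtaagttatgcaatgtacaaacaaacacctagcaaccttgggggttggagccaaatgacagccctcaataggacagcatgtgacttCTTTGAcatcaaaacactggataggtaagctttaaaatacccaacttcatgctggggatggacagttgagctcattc
Lect2 (chr13:56548539-56548788, minus strand): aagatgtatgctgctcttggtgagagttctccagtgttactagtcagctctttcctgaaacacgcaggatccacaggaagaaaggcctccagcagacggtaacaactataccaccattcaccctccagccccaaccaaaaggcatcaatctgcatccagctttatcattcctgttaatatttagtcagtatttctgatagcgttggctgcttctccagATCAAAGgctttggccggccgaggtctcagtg
The window of Oat holds no match. That of Cyp1a2 holds CTTTGA on the opposite strand, beginning 243 bases before the start site. In Slc1a2, matches begin 207 bases before the start site on the opposite strand and 77 bases before it on the gene's strand, and the single match of Lect2 begins 32 bases before it on the opposite strand. A match was present both in members that were lower on the arrays of the high-fat diet and in Lect2, which was higher.

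Between the HFD-IgG and SD arrays, 4 of the 10 were at least 2-fold lower (Oat, Cyp1a2, Slc1a2 and Tbx3) and Rhbg was at least 2-fold higher. The other 5 did not reach 2-fold, among them Axin2, which had only a bound. Over the 22002 genes compared, 22.9% passed 2-fold, 2.41% of all being lower and 20.4% being higher. The median log2 difference of the 10 was -0.47, against 0.04 over all genes. Among brighter genes, those above the 75th percentile on at least 1 of the 2 arrays, 4 of 7 members were lower and 0 higher, where 1.93% of 8647 genes were lower and 4.27% higher. Between the anti-VLA-4 and HFD-IgG arrays, 1 of the 10 was at least 2-fold lower (Rhbg) and 0 were higher, where 18.4% of 22589 genes passed 2-fold, 16.5% being lower and 1.9% higher. The median of the 10 was 0.10 against -0.06 over all genes, and 0 of the 7 brighter members passed 2-fold in either direction, where 1.3% of 8562 brighter genes were lower and 0.806% higher. Between the anti-VLA-4 and SD arrays, Oat, Tbx3 and Slc1a2 were at least 2-fold lower and Lect2 at least 2-fold higher, where 11.4% of 20334 genes passed 2-fold, 3.39% being lower and 7.98% higher. The medians were -0.55 for the 10 and 0 for all genes. All 4 members past 2-fold were among the 7 brighter members, and 1.55% of 8575 brighter genes were lower and 3.34% higher.

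**Figure D1:**
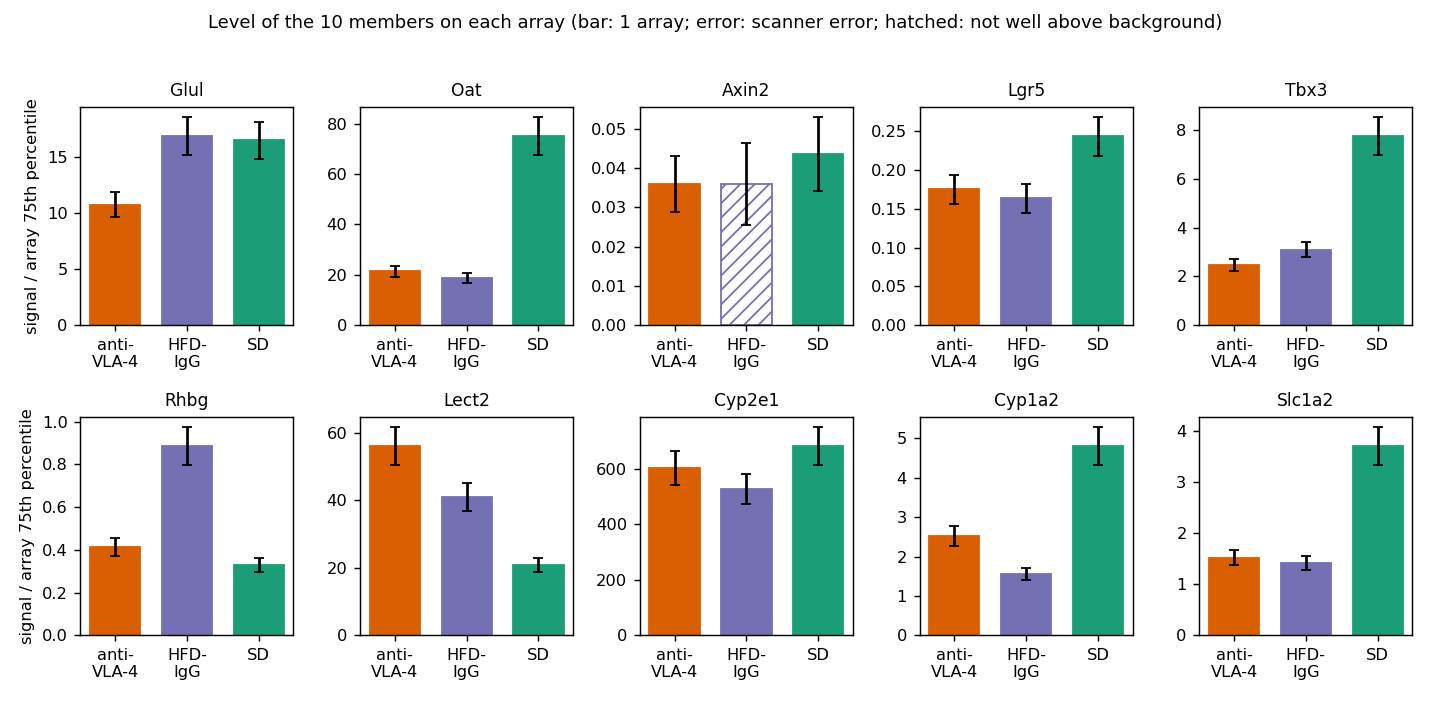
Level of each of the 10 genes, as processed signal over the array's 75th percentile on a linear axis, on the anti-VLA-4, HFD-IgG and SD arrays. A bar is 1 array, its error bar is the scanner's error, and a hatched bar was not well above background. Oat, Tbx3, Cyp1a2 and Slc1a2 were highest on the SD array, Rhbg on the HFD-IgG array and Lect2 on the anti-VLA-4 array.

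Nitrogen metabolism was represented by 4 members, which did not move together. Glul encodes glutamine synthetase, which fixes ammonia into glutamine in the last hepatocytes before the central vein. Its probe (chr1:155756765-155756824, mm9) had a level of 10.7 in anti-VLA-4, 16.9 in HFD-IgG and 16.5 in SD. The HFD-IgG and SD levels differed by 0.03 on the log2 scale, less than the scanner's error. The anti-VLA-4 level was 1.57-fold lower than the HFD-IgG level (log2 difference -0.65 with an error of 0.20) and 1.53-fold lower than the SD level, both beyond that error and below 2-fold. In the anti-VLA-4 over HFD-IgG comparison, 22.1% of all genes compared and 2.69% of the brighter ones had a lower value than Glul.

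Oat encodes ornithine aminotransferase, the mitochondrial enzyme that turns ornithine towards glutamate. Its probe (chr7:139749726-139749785, mm9) had a level of 21.4 in anti-VLA-4, 18.7 in HFD-IgG and 75.2 in SD. Both arrays of the high-fat diet thus lay well below the SD array and close to each other. The HFD-IgG level was 4.02-fold lower than the SD level (log2 difference -2.01 with an error of 0.20), and 85 of 22002 genes, or 0.386%, had a lower value. The anti-VLA-4 level was 3.52-fold lower than the SD level and differed from the HFD-IgG level by 0.19, within the error.

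Rhbg encodes an ammonium transporter of the hepatocyte membrane. Its probe (chr3:88047265-88047324, mm9) had a level of 0.412 in anti-VLA-4, 0.885 in HFD-IgG and 0.329 in SD, so that the HFD-IgG array stood above the other two. The HFD-IgG level was 2.69-fold higher than the SD level, and 14.7% of the genes compared had a higher value. The anti-VLA-4 level was 2.15-fold lower than the HFD-IgG level (log2 difference -1.10), and 14.9% of all genes had a lower value. The difference became -0.58 with normexp background correction. This alternative fits 1 model of signal and background to each array and adds an offset of 50 to every spot. Anti-VLA-4 and SD levels were 1.25-fold apart. Purines made up 56.7% of the Rhbg probe, and of genes whose probe held over 50% to 60% purines, 23.1% were at least 2-fold higher in HFD-IgG over SD, and for anti-VLA-4 over HFD-IgG 19.4% were at least 2-fold lower. For probes of at most 40% purines these shares were 8.24% and 3.78%. The part of probe composition in the Rhbg result was not tested. The probes that stand for Tbx3, Lect2, Cyp1a2 and Slc1a2 fall in the same class, in which 2.25% of genes were at least 2-fold lower in HFD-IgG over SD.

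Slc1a2 encodes a sodium-coupled glutamate transporter, which in the liver takes up glutamate in pericentral cells. The 3 probes lie along the same stretch of chromosome 2. Their first 30 of 60 bases (plus strand, mm9) are printed because the probes are set side by side below.
Slc1a2 A_55_P1955412 (chr2:102617752-102617781): aagcaactctaatcagtgtgtctatgccgc
Slc1a2 A_55_P2136847 (chr2:102622252-102622281): gtagaatgtttcagagtttcatgggtgccc
Slc1a2 A_55_P2392625 (chr2:102626380-102626409): aacccagtttccagcattcagacatcagta
The first of them, which stands for the gene, had a level of 1.52 in anti-VLA-4, 1.42 in HFD-IgG and 3.71 in SD. The next read 0.112, 0.0914 and 0.266 in the same order. The last read 0.0470 in anti-VLA-4 and 0.0710 in SD, while its HFD-IgG signal (0.0158) was not well above background. The array annotates the first to another RefSeq transcript of the gene than the other 2. All 3 probes were highest on the SD array. HFD-IgG was lower than SD by 2.61-fold and 2.91-fold on the first and second probe and by at least 2.25-fold on the third. Anti-VLA-4 was lower than SD by 2.43-fold, 2.37-fold and 1.51-fold on the 3 probes, so the third did not reach 2-fold. It was the only Slc1a2 probe with at most 50% purines, and with such probes alone the gene's value was -0.59 on the log2 scale. Anti-VLA-4 and HFD-IgG differed by 0.10 on the first probe, within the error.

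Axin2 and Lgr5, which take part in Wnt signalling itself, lay below the 75th percentile of every array. Tbx3, a target of beta-catenin, lay above it. Axin2 encodes a scaffold of the complex that destroys beta-catenin and is itself switched on by the pathway. Its probes are shown by their first 30 of 60 bases (plus strand, mm9), because they gave different pictures.
Axin2 A_55_P2000783 (chr11:108812034-108812063): cttggtacaataattattgtaattaagaga
Axin2 A_66_P134405 (chr11:108803927-108803956): tcctgggggaacagattattattgctactc
The first probe had a level of 0.0360 in anti-VLA-4, 0.0360 in HFD-IgG, a signal not well above background there, and 0.0436 in SD. In processed intensity these were 18.5, 18.0 and 25.0 scanner units. Differences of this probe stayed within the scanner's error, and HFD-IgG over SD had only a bound, at least 1.21-fold lower. Anti-VLA-4 over HFD-IgG had only a bound too, of 0.002 on the log2 scale. The second probe had a level of 0.0557 in anti-VLA-4, while its signals in HFD-IgG (0.0170) and SD (0.0223) were not well above background. On it, anti-VLA-4 was at least 1.77-fold higher than HFD-IgG and at least 2.17-fold higher than SD. The probes therefore pointed in opposite directions for anti-VLA-4 over SD, and no direction is given for Axin2.

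**Figure D2:**
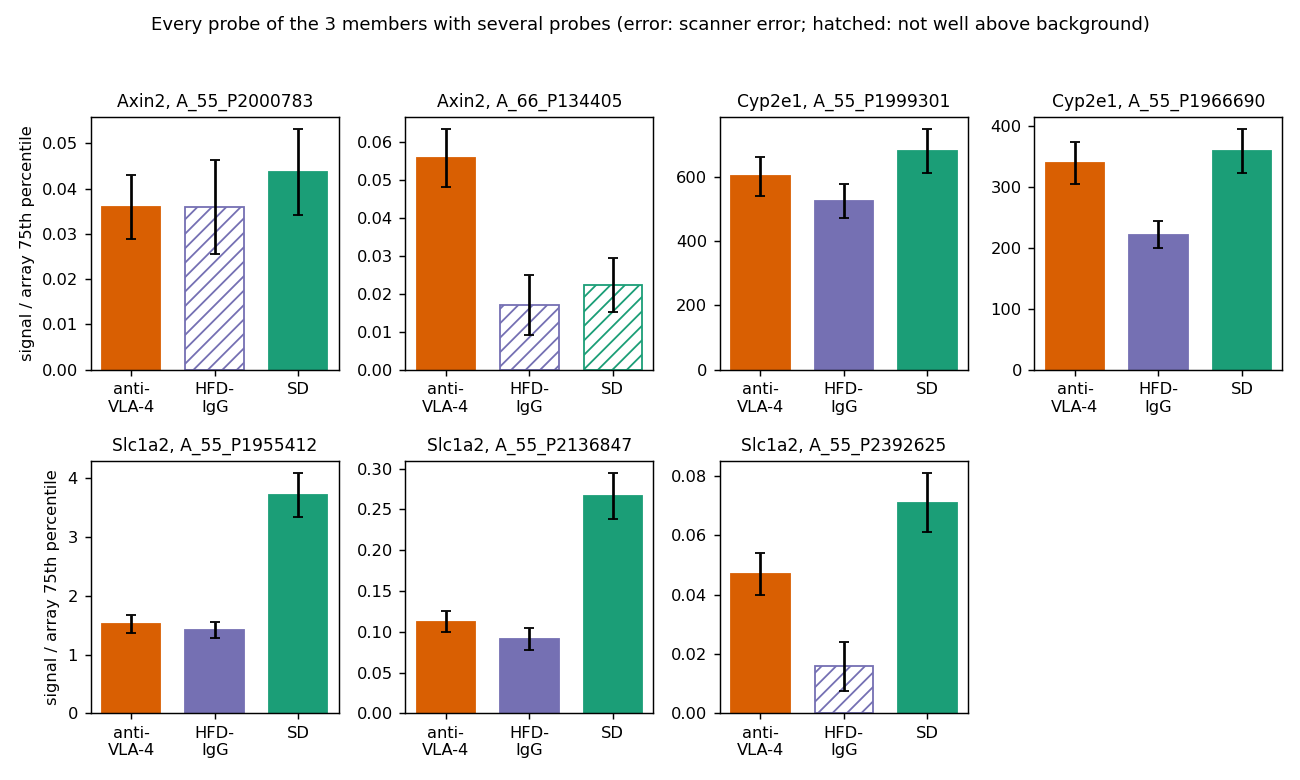
Level of every probe of Axin2, Cyp2e1 and Slc1a2 on the anti-VLA-4, HFD-IgG and SD arrays, as signal over the array's 75th percentile. A bar is 1 array with the scanner's error, and hatched bars were not well above background. The 3 Slc1a2 probes share their highest array, SD, while the 2 Axin2 probes differ in theirs.

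Lgr5 encodes a receptor for R-spondins that keeps Wnt receptors on the cell surface, and it marks hepatocytes next to the central vein. Its probe (chr10:114887403-114887462, mm9) had a level of 0.175 in anti-VLA-4, 0.163 in HFD-IgG and 0.243 in SD. HFD-IgG was 1.49-fold and anti-VLA-4 1.39-fold lower than SD, and both differences turned to 0.73 and 0.43 higher on the log2 scale with normexp background correction, where the medians of all genes were 0.48 and 0.28. Anti-VLA-4 and HFD-IgG differed by 0.10, within the error of 0.22.

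Tbx3 encodes a T-box transcription factor that is a target of beta-catenin in the liver. Its probe (chr5:120134511-120134570, mm9) had a level of 2.48 in anti-VLA-4, 3.09 in HFD-IgG and 7.77 in SD, and both arrays of the high-fat diet were clearly below the SD array. HFD-IgG was 2.51-fold lower than SD (log2 difference -1.33 with an error of 0.20), with 263 of 22002 genes having a lower value. Anti-VLA-4 was 3.13-fold lower than SD and 1.24-fold lower than HFD-IgG.

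The pericentral cytochromes P450 differed from each other. Cyp2e1 encodes the enzyme that oxidises ethanol and activates paracetamol. Its first probe (chr7:147960628-147960687, mm9) had a level of 603 in anti-VLA-4, 527 in HFD-IgG and 680 in SD, and its second (chr7:147956922-147956981) read 340, 222 and 359 in the same order. Both probes were lowest on the HFD-IgG array, with HFD-IgG 1.29-fold and 1.62-fold lower than SD and anti-VLA-4 1.14-fold and 1.53-fold higher than HFD-IgG. For HFD-IgG over SD, the log2 difference of the first probe, -0.37, became -1.05 with normexp background correction. Anti-VLA-4 and SD differed by 0.17 and 0.08 on the log2 scale, within the error on both probes.

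Cyp1a2 encodes the enzyme that metabolises caffeine, and it is controlled by the aryl hydrocarbon receptor as well as by beta-catenin. Its probe (chr9:57528060-57528119, mm9) had a level of 2.52 in anti-VLA-4, 1.56 in HFD-IgG and 4.80 in SD, with the anti-VLA-4 array between the others. HFD-IgG was 3.07-fold lower than SD (log2 difference -1.62 with an error of 0.20), and 156 of 22002 genes had a lower value. Anti-VLA-4 was 1.62-fold higher than HFD-IgG, with 5.02% of all genes and 2.39% of brighter genes having a higher value, and 1.90-fold lower than SD. This was the highest of the members' values for anti-VLA-4 over HFD-IgG.

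Lect2 encodes a protein that hepatocytes secrete into the blood. Its probe (chr13:56643829-56643888, mm9) had a level of 56.0 in anti-VLA-4, 40.9 in HFD-IgG and 20.9 in SD. The order was the reverse of that of Tbx3. HFD-IgG was 1.96-fold higher than SD, just inside the 2-fold limit, with 20.9% of all genes and 4.36% of brighter genes having a higher value. Its log2 difference of 0.97 became 0.33 with normexp background correction. Anti-VLA-4 was 1.37-fold higher than HFD-IgG. Anti-VLA-4 was 2.68-fold higher than SD (log2 difference 1.42 with an error of 0.20). In that comparison 4.51% of all genes and 2.05% of brighter genes had a higher value. The log2 difference of 1.42 became 0.86 with normexp background correction.

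**Figure D3:**
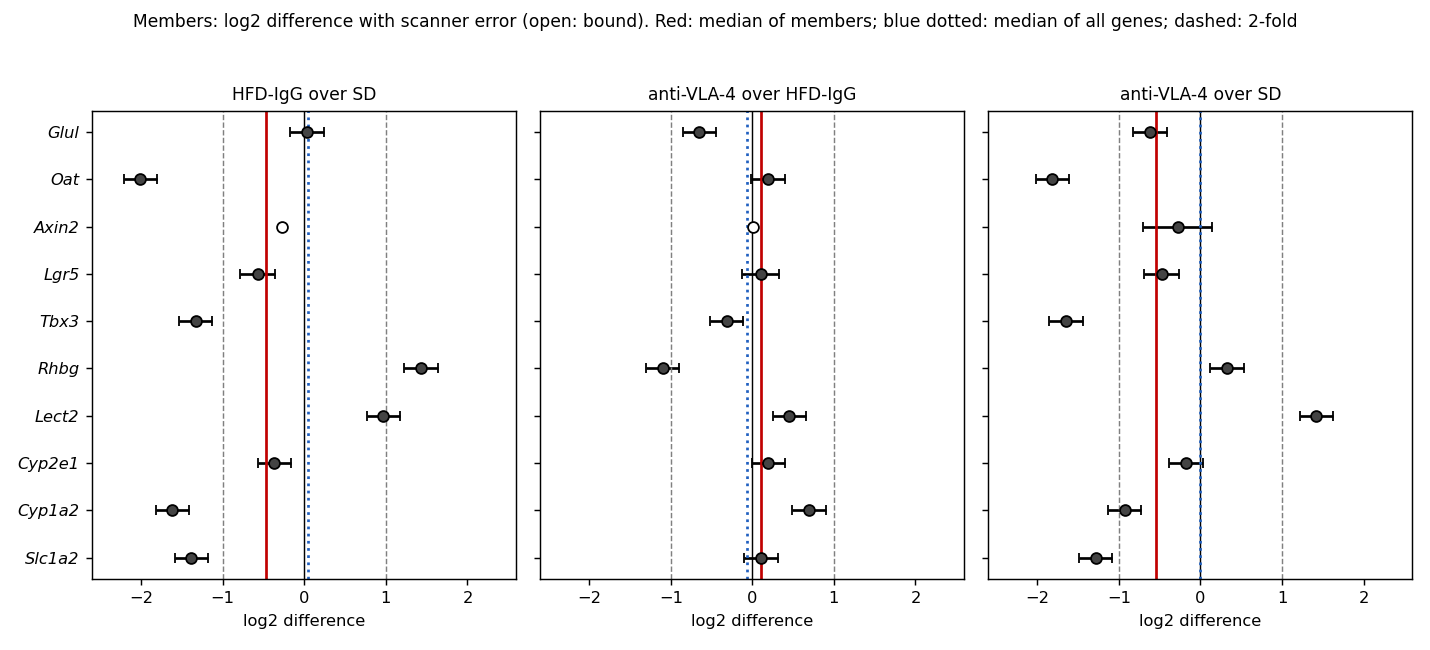
log2 difference of the 10 genes in the 3 comparisons, named above each panel. Points are 1 array against 1 array with the scanner's error, open points are bounds, the red line is the median of the 10 (-0.47, 0.10 and -0.55), the blue dotted line the median of all genes, and dashed lines mark 2-fold. Oat lies lowest in the first and last panel, and Rhbg lies lowest in the middle one.

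Other genes of the pathway were examined from lists by role. The 24 Wnt ligands, R-spondins and secretion factors had 14 genes compared in HFD-IgG over SD, of which 6 were at least 2-fold higher and 0 lower, beside 20.4% higher over all genes compared. Of the 6, only Rspo3 was measured on both arrays. The other 5 (Wnt2, Wnt4, Wnt8a, Wnt10b and Wls) were not well above background in SD and entered the comparison through HFD-IgG alone, so they could differ only upward. Rspo3, the R-spondin of the central vein, had a level of 0.153 in anti-VLA-4, 0.261 in HFD-IgG and 0.0528 in SD. HFD-IgG was thus 4.95-fold and anti-VLA-4 2.90-fold higher than SD. The Rspo3 probe held 58.3% purines. Of genes with over 50% to 60% purines, 23.1% were at least 2-fold higher in HFD-IgG over SD and 7.87% in anti-VLA-4 over SD. Wnt2, a ligand of the liver's endothelium, read 0.0308 in anti-VLA-4 and 0.286 in HFD-IgG, with an SD signal that was not well above background, which made HFD-IgG at least 11.1-fold higher than SD and anti-VLA-4 9.28-fold lower than HFD-IgG. The Wnt2 probe held 63.3% purines, and of genes with over 60% purines 46.9% were at least 2-fold higher in HFD-IgG over SD and 46.7% at least 2-fold lower in anti-VLA-4 over HFD-IgG. The median of the list was 0.63 in HFD-IgG over SD and -0.01 over genes well above background on both arrays. In anti-VLA-4 over HFD-IgG, 4 of 15 were lower (3 of them not well above background in anti-VLA-4) and 1 was higher. Over all genes 16.5% were lower and 1.9% higher. In anti-VLA-4 over SD, 3 of 12 were higher (Wls as a bound) and 0 lower, beside 7.98% higher over all genes.

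Of 12 receptors and co-receptors compared in HFD-IgG over SD, 2 were higher (Fzd2 and Fzd6, both against an SD level not well above background) and 0 lower, a share near the 20.4% of all genes. The same pair was lower among 13 for anti-VLA-4 over HFD-IgG (Fzd2 as a bound), beside 16.5% of all genes. Fzd6 was higher among 12 for anti-VLA-4 over SD, as a bound, beside 7.98%. Among 19 genes of the destruction complex and of beta-catenin's transcription partners, only Lef1 passed 2-fold in HFD-IgG over SD, upward, and only Lef1 passed it in anti-VLA-4 over HFD-IgG, downward, each against an array not well above background. In anti-VLA-4 over SD, 0 of 18 did. Ctnnb1, which encodes beta-catenin, had levels of 4.60 in anti-VLA-4, 4.35 in HFD-IgG and 4.43 in SD.

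Of the pathway's inhibitors, 8 of 17 were compared in HFD-IgG over SD, with 3 higher and 2 lower, beside 20.4% and 2.41% of all genes. Of the 3, Dkk4 had only a bound. Dkk3 was 5.19-fold higher, with levels of 0.0954 in anti-VLA-4, 0.306 in HFD-IgG and 0.0590 in SD. Its probe held 61.7% purines. Of genes with over 60% purines, 46.9% were higher in HFD-IgG over SD and 46.7% lower in anti-VLA-4 over HFD-IgG. Dact2 was 4.29-fold lower, but its sign turned with normexp background correction (0.15). In anti-VLA-4 over HFD-IgG 4 of 8 were lower and 0 higher, beside 16.5% lower over all genes. Of the 4, Dkk4 and Kremen2 were not well above background in anti-VLA-4 and could differ only downward. In anti-VLA-4 over SD 2 of 6 were lower and 0 higher, beside 3.39% lower over all genes.

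Among 9 other feedback targets of Wnt signalling, 3 were higher and 1 lower in HFD-IgG over SD, beside 20.4% and 2.41% of all genes. Of the 3, Nkd1 and Ascl2 were not well above background in SD and could differ only upward. For anti-VLA-4 over HFD-IgG, 1 was higher and 2 lower (Ascl2 as a bound), beside 1.9% and 16.5% of all genes. Of 8 genes in anti-VLA-4 over SD, 3 were higher (Nkd1 as a bound) and 2 lower, beside 7.98% and 3.39%. Rnf43, a ligase that removes Wnt receptors, had levels of 1.73 in anti-VLA-4, 1.93 in HFD-IgG and 4.27 in SD, and was 2.22-fold lower in HFD-IgG and 2.47-fold lower in anti-VLA-4 than in SD. Ccnd1, which encodes cyclin D1, had levels of 4.53, 4.35 and 1.68 on the same arrays and was 2.59-fold and 2.70-fold higher than in SD. Nkd2, an inhibitor induced by the pathway, had levels of 16.3 in anti-VLA-4, 5.60 in HFD-IgG and 7.04 in SD. Anti-VLA-4 was thus 2.91-fold higher than HFD-IgG in Nkd2, but only 0.52 on the log2 scale as the mean over its probes. Targets of the same pathway therefore lay on both sides.

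Of 23 further pericentral genes, HFD-IgG over SD had 7 lower by at least 2-fold and 2 higher, with a median log2 difference of -0.76. Over all genes 2.41% were lower and 20.4% higher, and over brighter genes 1.93% and 4.27%. Lhpp, a phosphatase, had levels of 8.10 in anti-VLA-4, 6.25 in HFD-IgG and 35.3 in SD, so that HFD-IgG was 5.65-fold lower than SD. Cyp3a11, a major drug-metabolising P450 of mouse liver, had levels of 53.9, 55.0 and 249 on the same arrays and was 4.53-fold lower in HFD-IgG than in SD. Por, which supplies electrons to the P450 enzymes, was 2.48-fold lower in HFD-IgG than in SD. Slc13a3, a carrier of dicarboxylates, went against them and was 4.90-fold higher.

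Over all genes, anti-VLA-4 over HFD-IgG had 1.9% higher and 16.5% lower, and over brighter genes 0.806% and 1.3%. Of the same 23 pericentral genes, 3 were higher and 1 lower in this comparison, with a median of 0.44. The 3 were P450 genes: Cyp2c37 (45.8 in anti-VLA-4, 19.5 in HFD-IgG and 43.4 in SD, 2.34-fold higher), Cyp2c54 (2.18-fold higher) and Cyp2c50 (2.09-fold higher). These come from a family of near-identical genes, so the probes may read each other's transcripts, and the same holds for Cyp3a11. The lower gene was Cyp7a1, the rate-limiting enzyme of bile acid synthesis, which had levels of 2.44 in anti-VLA-4, 4.95 in HFD-IgG and 3.06 in SD and was 2.03-fold lower than in HFD-IgG. In anti-VLA-4 over SD, 3 were lower and 2 higher, beside 3.39% and 7.98% of all genes, with a median of -0.10. Csad, an enzyme of taurine synthesis, was 4.41-fold lower.

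Periportal genes, the counterpart at the other end of the lobule, had medians of 0.07 (HFD-IgG over SD), -0.12 (anti-VLA-4 over HFD-IgG) and -0.05 (anti-VLA-4 over SD). All 20 were well above background on every array. Of these 20 genes, 3 were higher and 2 lower in HFD-IgG over SD, beside 20.4% and 2.41% of all genes. Over brighter genes these shares were 4.27% and 1.93%. In anti-VLA-4 over SD 3 were higher and 2 lower, beside 7.98% and 3.39% of all genes and 3.34% and 1.55% of brighter ones. In anti-VLA-4 over HFD-IgG 0 passed 2-fold, beside 18.4% of all genes. Of brighter genes, 0.806% were higher and 1.3% lower in that comparison. Aldh1b1, a mitochondrial aldehyde dehydrogenase, was 4.66-fold higher in HFD-IgG than in SD, and Cps1, the first enzyme of the urea cycle, was 2.20-fold lower. With normexp background correction the periportal median of HFD-IgG over SD was -0.61 and that of the other pericentral genes -1.21.

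Genes tied to particular members were also examined. The receptor that controls Cyp1a2, Ahr, had levels of 3.64 in anti-VLA-4, 2.67 in HFD-IgG and 4.54 in SD and was 1.70-fold lower in HFD-IgG than in SD. None of the 5 genes compared from the AhR pathway passed 2-fold in any of the 3 comparisons. Among 18 genes of glutamine and ornithine metabolism, 1 was higher and 1 lower in HFD-IgG over SD, beside 20.4% and 2.41% of all genes. The lower was Asns, asparagine synthetase, with levels of 0.0768 in anti-VLA-4, 0.108 in HFD-IgG and 0.775 in SD, a 7.17-fold difference that shrank to -0.74 on the log2 scale with normexp background correction. In anti-VLA-4 over HFD-IgG 1 of 19 was lower (Arg2, as a bound), beside 16.5% of all genes. In anti-VLA-4 over SD 1 of 18 was higher and 2 lower, beside 7.98% and 3.39%.

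**Figure D4:**
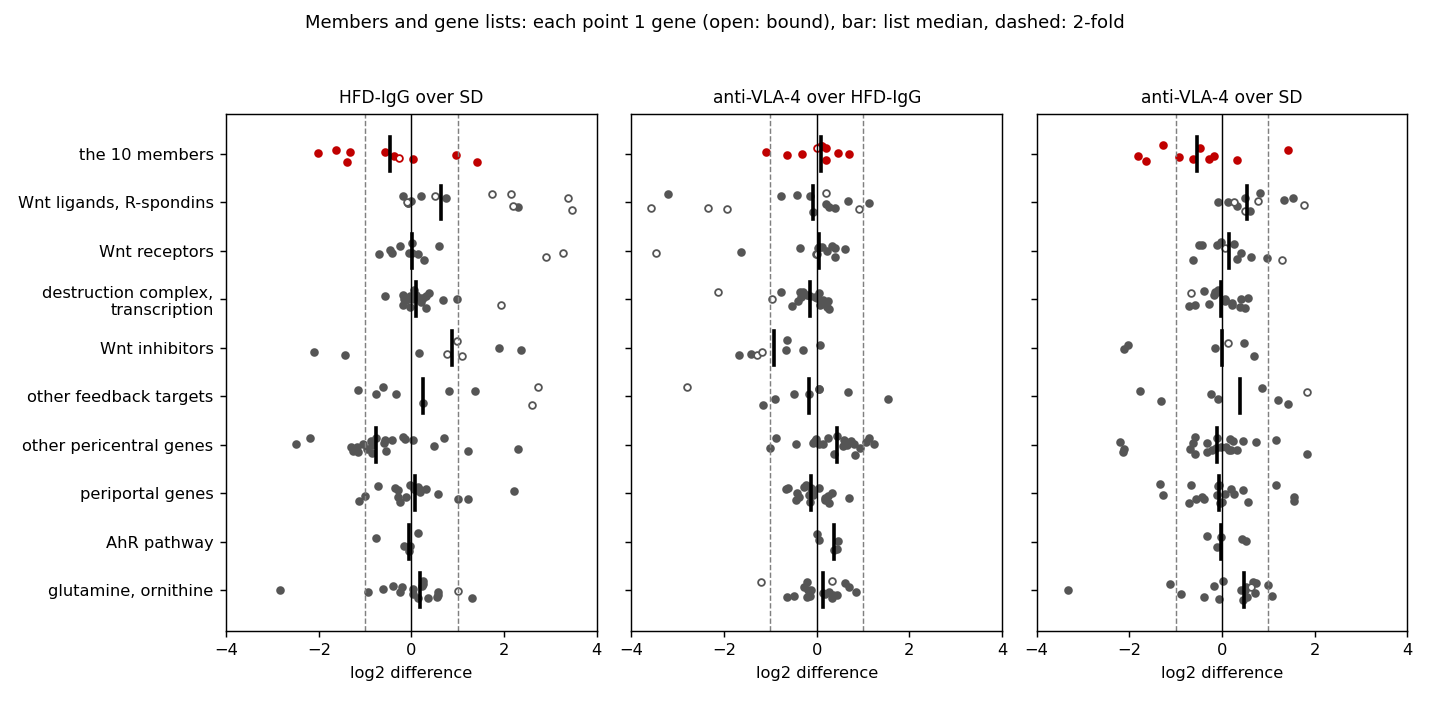
log2 differences of the 10 genes (red) and the gene lists in the 3 comparisons, named above each panel. Each point is 1 gene, open points are bounds, bars are medians and dashed lines mark 2-fold. The other pericentral genes have a median of -0.76 in the first panel and 0.44 in the second, and the periportal genes 0.07 and -0.12.

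Markers of several cell types other than hepatocytes differed between the arrays. Over all genes compared, 20.4% were at least 2-fold higher in HFD-IgG over SD and 16.5% lower in anti-VLA-4 over HFD-IgG. Of 20 markers of sinusoidal endothelial cells, 18 were at least 2-fold higher in HFD-IgG over SD and, for anti-VLA-4 over HFD-IgG, 9 were lower. Their summed level was 50.4 in anti-VLA-4, 91.6 in HFD-IgG and 20.5 in SD. All 5 compared markers of central vein endothelium, which include Rspo3 and Wnt2, were higher in HFD-IgG over SD, with sums of 0.856, 1.64 and 0.262. Of 17 Kupffer cell and macrophage markers, 16 were higher in HFD-IgG over SD, with sums of 62.9, 81.9 and 16.4, and of 16 stellate cell and fibroblast markers 13 were, with sums of 18.0, 34.7 and 4.64. Cholangiocyte markers were higher for 4 of 7 and erythroid markers for 0 of 4. In SD, 9 of the 16 stellate markers, 4 of 18 Kupffer cell markers on the array, 2 of 20 sinusoidal and 2 of 6 central vein markers were not well above background. Bounds of this kind, which could only be higher in HFD-IgG, made up 8 of the 13 stellate, 3 of the 16 Kupffer cell, 2 of the 18 sinusoidal, 1 of the 5 central vein and 3 of the 4 cholangiocyte markers that were higher. For anti-VLA-4 over HFD-IgG, 1 of 17 Kupffer cell and 1 of 5 central vein markers were lower. So were 7 of 16 stellate markers (1 as a bound) and 3 of 7 cholangiocyte markers (all bounds). For anti-VLA-4 over SD, 18 of 20 sinusoidal (2 as bounds) and 16 of 17 Kupffer cell markers (3 as bounds) were higher. So were 4 of 5 central vein and 10 of 14 stellate markers (5 as bounds), beside 7.98% of all genes. Among cholangiocyte markers 2 of 5 were higher. The 17 hepatocyte markers had summed levels of 5993 in anti-VLA-4, 6157 in HFD-IgG and 5883 in SD, with 0 higher and 1 lower in HFD-IgG over SD and medians between 0.01 and 0.17. With normexp background correction their median moved to -0.73 in HFD-IgG over SD and to 0.45 in anti-VLA-4 over HFD-IgG. The part of other cells in the members' values was not tested.

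The genes whose pattern over the 3 arrays was most like that of Oat were sought among 17035 genes well above background on all 3, by the distance between their log2 differences in the first 2 comparisons. With clones and predicted loci among them left out, the nearest were Ugt1a10 at 0.0875, Mipol1 at 0.105 and Cspg5 at 0.140 log2 units. Ugt1a10 shares exons with its neighbours in a gene cluster, so its probe may read them too. With normexp background correction Mipol1 and Cspg5 were higher in HFD-IgG than in SD, by 0.63 and 0.80.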

How the data were processed

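Hepatocyte RNA of 3 groups was measured on 3 single-colour Cy3 arrays. The authors' scanner files hold spot intensities. Per the submitters' processing notes, Agilent Feature Extraction 11.0.1.1 produced them. Background subtraction and detrending of the arrays were part of it, per the file headers. RNA was extracted with QIAzol and an RNeasy kit and labelled with a low-input kit, per the labels. That software also set flags for each spot, among them well above background, which are other values per the file headers. The deposited table of values has 23206 rows, each a linear ratio. Set against the scanner files, each value is the processed signal over the array's 75th percentile (largest relative deviation 2e-08), with no centring on genes and column medians of 0.81 for anti-VLA-4, 0.80 for HFD-IgG and 0.79 for SD. It covers 11 of the 14 member probes and was an alternative. Of its sample columns, 0 were left unmatched.

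Values here are log2 of the processed signal over the 75th percentile of the array, taken over non-control spots. Spots marked non-uniform or as population outliers were left out (0 of the members'), spots of a probe were averaged, and a gene took its probe with the highest mean. Of 39395 probes, 26032 (66.1%) were named through a RefSeq accession, the rest by the array's own name, and 6278 genes had several probes. A comparison took in the genes whose probe was well above background on either of its arrays. With only 1 such array, the value is a bound against the higher of the other array's lowest signal well above background and the probe's own, written as at least that fold. Probe positions are on mm9, per the file headers.

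The members and gene lists were chosen with earlier results of these data known. Named were all members and up to 4 genes per pathway list and comparison (at least 2-fold, measured values first, otherwise the single largest). Up to 2 per marker list were named too, and so were the 3 genes nearest to Oat, clones and predicted loci left out. The text gives part of them. Ctnnb1, Wnt4, Alb and Hnf4a were named after their values were seen. The steps were run on copies of the SD array with random noise and known changes beyond 2-fold in genes well above background. The copies held no slide or background shift and no changed dim genes. The run therefore cannot tell how reliable the calls here are. Alternatives were quantile scaling, scaling to the median of probes well above background, normexp background correction with offset 50, the mean over probes, other filters on dim genes, probes of at most 50% purines, a 1.5-fold limit and the deposited table. Tools were R 4.3.3 with limma 3.58.1, and Python 3.11.15 with numpy 2.4.6, pandas 2.3.3 and matplotlib 3.10.9.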

Additional observations from a re-analysis of the deposited data

How the results depend on the processing

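The differences of single members were compared under each alternative. The filters on dim genes and the deposited table leave a measured difference unchanged, and a gene with 1 probe has no other probe to take. Many alternative values therefore repeat the reported one and are no sign of stability. For the member differences of at least 2-fold, 82 of 82 alternative values kept their direction and 79 stayed at least 2-fold. The 3 that did not were Lect2 in anti-VLA-4 over SD (0.86) and Rhbg in anti-VLA-4 over HFD-IgG (-0.58), both with normexp background correction, and Slc1a2 in anti-VLA-4 over SD with probes of at most 50% purines (-0.59). Of 162 values for member differences that did not reach 2-fold, 7 passed it. With quantile scaling these were Axin2 (-1.52), Lgr5 (-1.08) and Lect2 (1.06) in HFD-IgG over SD and Axin2 in anti-VLA-4 over HFD-IgG (1.02). With normexp they were Cyp2e1 in HFD-IgG over SD (-1.05) and Axin2 (1.42) and Cyp1a2 (-1.32) in anti-VLA-4 over SD.

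The number of members at least 2-fold different in HFD-IgG over SD, 5, became 8 with quantile scaling and 2 with probes of at most 50% purines, where 6 members remained. For anti-VLA-4 over HFD-IgG, 1 became 2 with quantile scaling, 3 at 1.5-fold, and 0 with normexp, among genes above the 75th percentile and with probes of at most 50% purines. For anti-VLA-4 over SD, 4 became 1 with those probes. The median of the members in HFD-IgG over SD moved to -1.16 (quantile), -0.81 (normexp) and -1.33 (above the 75th percentile), and in anti-VLA-4 over SD to -0.93 (above the 75th percentile). With normexp the median of the hepatocyte markers in HFD-IgG over SD was -0.73.

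The share of all genes at least 2-fold different in HFD-IgG over SD, 22.9%, became 44.6% with normexp, 10.99% for genes well above background on both arrays, 6.20% above the 75th percentile, 13.7% with probes of at most 50% purines, 10.6% in the deposited table and 35.7% at 1.5-fold. For anti-VLA-4 over HFD-IgG, 18.4% became 0.965%, 8.29%, 2.10%, 8.76%, 5.89% and 30.4% under the same settings in that order. For anti-VLA-4 over SD, 11.4% became 32.4% with normexp, 4.89% above the 75th percentile and 25.8% at 1.5-fold. Of those genes, 89.4% were higher in HFD-IgG over SD, and 48.7% with quantile scaling. For anti-VLA-4 over HFD-IgG, 10.3% were higher, 54.4% with quantile scaling and 31.2% with normexp. For anti-VLA-4 over SD they were 70.2%, 59.3% with quantile scaling and 93.6% with normexp. Normexp moved the median of all genes from 0.04 to 0.48 in HFD-IgG over SD and from 0 to 0.28 in anti-VLA-4 over SD.

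Among members within 2-fold, normexp turned Lgr5 in HFD-IgG over SD (0.73), anti-VLA-4 over SD (0.43) and anti-VLA-4 over HFD-IgG (-0.30), Glul in HFD-IgG over SD (-0.56) and Axin2 in anti-VLA-4 over SD (1.42), which the mean over probes turned too (0.52). Among the other named genes, directions turned for Dact2 (0.15), Dact1 (0.51), Mipol1 (0.63) and Cspg5 (0.80) in HFD-IgG over SD, for Dact1 (0.0772) and Sp5 (0.52) in anti-VLA-4 over SD and for Wnt16 in anti-VLA-4 over HFD-IgG (-0.28), all with normexp, and for Wnt16 with the mean over probes (-0.91). The median of the cholangiocyte markers in HFD-IgG over SD turned to -0.17 for genes well above background on both arrays, -0.41 with probes of at most 50% purines and -0.10 in the deposited table. The causes were not tested. No paired analysis was possible because each group has 1 array and its number marks no pairing, and no replicate could be left out. The depth of signal limits Axin2, whose probes were near background.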
